A study of Mus musculus with 2 samples.

Results

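The 987 open chromatin sites described here lie over 1 kb from the protein-coding start sites that were used. Each gave a stronger DNase-seq signal in replicate 2 than in replicate 1 of newborn mouse spleen. They were selected on the ratio of the deposited signals, so that ratio is given as a description and carries no test. Merging the peaks of the libraries wherever they overlapped gave 105096 regions, of which 60596 held a peak of each. Of these, 39714 had a midpoint over 1 kb from every start site of a protein-coding gene, and 15394 of those reached a signal of 1 or more in replicate 2 (scored distal sites). A member is a scored distal site whose log2(replicate 2/replicate 1), after subtraction of the median over all two-library regions (-0.165), was 0.6 or higher, which is 1.52-fold above that median. Members made up 6.41% of the scored distal sites. The same rule with the libraries exchanged found 576 of 16745 sites stronger in replicate 1 (3.44%).

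Both libraries came from spleen tissue of male B6CASTF1/J mice aged 4 days, first-generation hybrids of the C57BL/6J and CAST/EiJ strains, and the labels make them biological replicates 2 and 1 of 1 group with no treatment or mutation. The sample descriptions number the males differently, while the donor identifier is the same for both. Each side of the ratio is therefore 1 library, no difference has a replicate check, and no p-value was computed. In bulk tissue, fewer cells of a type and less open chromatin per cell cannot be told apart. Replicate 2 had 88723 peaks and replicate 1 had 80323, and the scale of the signal and the depth are not stated.

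In DNase-seq, the nuclease DNase I cuts DNA that is free of nucleosomes, and distal sites of this kind include enhancers, which are often open in 1 cell lineage and closed in others. The spleen of a newborn mouse still makes red blood cells while lymphocytes and antigen-presenting cells settle in it. GATA factors act at erythroid enhancers, EBF and E2A proteins at B cell enhancers, and PU.1 at enhancers of myeloid and B cells.

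The reference bases of 5 members are shown because they stand for the gene groups that the results turn on: antibody and B cell genes, antigen presentation, natural killer cells and, as the single erythroid example, Xpo7. Sequences are of the plus strand of mm10 (GRCm38), 5′ to 3′, and the genomes of these hybrid mice can differ from them. Capitals mark matches on either strand to 10 motifs. GATA was searched as AGATAA and as its variant TGATAA, long ETS motifs of the PU.1 type as GAGGAAGT and its variant AAGGAAGT, and the ETS core as CCGGAAGT and its variant CAGGAAGT. RUNX was searched as TGTGGT and as its variant TGCGGT, the E2A E-box as CAGGTG, the POU octamer as ATGCAAAT and its variant ATGCTAAT, and the NF-Y box as CCAAT. The EBF, EICE (ETS-IRF composite) and CTCF motifs were searched by their longer consensus.
Immunoglobulin heavy chain site within Igha (chr12:113257381-113257560): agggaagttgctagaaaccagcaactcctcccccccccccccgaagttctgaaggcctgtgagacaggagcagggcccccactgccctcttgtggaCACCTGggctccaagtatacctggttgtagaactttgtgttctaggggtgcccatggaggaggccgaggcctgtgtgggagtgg
Spib site (chr7:44532981-44533220): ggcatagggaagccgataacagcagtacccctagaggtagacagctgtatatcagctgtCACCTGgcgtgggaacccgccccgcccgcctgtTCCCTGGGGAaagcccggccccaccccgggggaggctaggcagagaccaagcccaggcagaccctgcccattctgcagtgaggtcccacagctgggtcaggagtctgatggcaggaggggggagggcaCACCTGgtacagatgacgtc
H2-Ab1 site (chr17:34257681-34257860): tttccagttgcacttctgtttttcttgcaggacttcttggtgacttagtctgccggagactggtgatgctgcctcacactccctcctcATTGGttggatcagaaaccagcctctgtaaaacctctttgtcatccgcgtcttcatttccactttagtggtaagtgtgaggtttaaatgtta
Klrb1c site (chr6:128805201-128805380): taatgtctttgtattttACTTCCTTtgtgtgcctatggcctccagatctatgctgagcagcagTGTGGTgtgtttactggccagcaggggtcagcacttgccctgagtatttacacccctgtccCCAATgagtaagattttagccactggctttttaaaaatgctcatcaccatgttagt
Xpo7 site (chr14:70682241-70682440): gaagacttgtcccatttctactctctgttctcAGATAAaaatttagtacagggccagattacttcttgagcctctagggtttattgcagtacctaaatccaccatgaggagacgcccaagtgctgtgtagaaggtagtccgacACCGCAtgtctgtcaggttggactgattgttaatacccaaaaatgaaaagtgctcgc
The Igha site held an E2A E-box. The Spib site held 1 EBF match and 2 E2A E-boxes. The H2-Ab1 site held an NF-Y box, and the Klrb1c site held 1 match each to the PU.1, RUNX and NF-Y motifs. The Xpo7 site held 1 GATA and 1 RUNX match. Over all scored distal sites, 21% held an E2A E-box, 20.9% a RUNX match, 20.7% an NF-Y box, 20.7% a CTCF match, 17.9% a GATA match, 4.63% a PU.1 match and 1.06% an EBF match in their central 200 bp. A match is a description of the letters and not a bound factor.

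Most members were weak sites. Their median signal was 1.51 in replicate 2 and 1.01 in replicate 1, against 1.72 in replicate 2 and 1.92 in replicate 1 at the 14407 other scored distal sites. A replicate 2 signal under 2 was found at 68.6% of members, and 40 members reached 5 or more. The centred log2 ratio of members ran between 0.60 and 3.21 with a median of 0.73, and 80 members had a ratio of 1 or higher. The rule places replicate 2 above replicate 1 at every member before centring too, and the lowest log2 ratio was 0.436. The members just inside the threshold were nearest to Zfp715 (1.38 in replicate 2, 1.02 in replicate 1, 0.6002) and Adora3 (1.81 in replicate 2, 1.34 in replicate 1, 0.6004). Just outside lay sites nearest to Adi1 and Tmem163, both at 0.5998. The scatter of signals shows the members as a band along the edge of a continuous cloud, with no gap between them and the other sites.

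**Figure D1:**
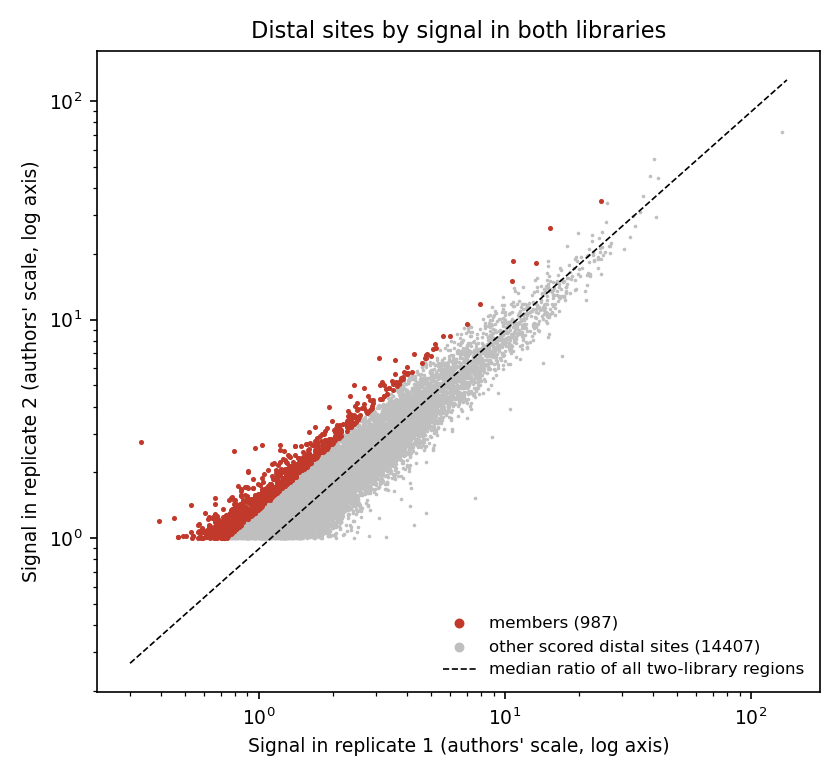
Signal in replicate 2 (vertical) against replicate 1 (horizontal), both on log axes of the authors' scale, for 987 members (red) and 14407 other scored distal sites (grey). The dashed line is the median ratio over all two-library regions. Members form the upper edge of 1 continuous cloud, mostly at signals under 2 in replicate 2.

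Members lay farther from genes than the other scored sites, as did, to a lesser degree, the sites stronger in replicate 1. The median distance to the nearest protein-coding start was 20291 bp for members and 13308 bp for the others, and 24.5% of members lay beyond 50 kb, against 14.6% of the others. The sites stronger in replicate 1 had a median of 16532 bp, and 22.2% of them lay beyond 50 kb. Introns held 41.6% of members, exons 4.36% and intergenic DNA 54.0%, against 45.6%, 6.92% and 47.5% of the other sites in the same classes. Intergenic DNA held 43.4% of the sites stronger in replicate 1. At such distances the nearest gene is a label of position, and a site can act on another gene. Members belonged to both stricter peak lists in 89.2% of cases, against 97.9% of the others, and 95.5% held a deposited footprint (a short stretch protected from the enzyme) in both libraries, against 96.0% of the others. For the sites stronger in replicate 1 these shares were 81.1% and 93.6%.

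Genes of lymphocytes and antigen-presenting cells had members near them more often than the scored sites as a whole, as did some lists of other tissues. Erythroid genes had almost none. Each scored site was assigned to its nearest protein-coding gene, and 25 gene lists were counted against the 6.41% of all sites. Around B cell genes 17 of 114 scored sites were members (14.9%, exact binomial 95% interval 8.93 to 22.8). Around T cell genes the count was 7 of 41 (17.1%, 7.15 to 32.1), and around natural killer and cytotoxic genes 4 of 23 (17.4%, 4.95 to 38.8). Macrophage and monocyte genes had 8 of 46 (17.4%, 7.82 to 31.4) and dendritic cell genes 7 of 38 (18.4%, 7.74 to 34.3). Of the dendritic members, 2 were nearest to H2-Eb1, 2 to Tcf4, 1 to H2-Ab1, 1 to H2-Aa and 1 to Cd83. The H2 sites are the MHC class II sites described again below. Some genes are in more than 1 list, such as Irf4, Irf8 and Ciita in the B cell and dendritic lists. Intervals cover counting error only, and sites near 1 gene are not independent. Of 171 scored sites around erythroid genes, 1 was a member (0.585%, 0.0148 to 3.22), beside 5 of 193 that were stronger in replicate 1 (2.59%, against 3.44% of all sites). Without Klrb1c the natural killer share was 1 of 16 (6.25%), and without Ets1 the T cell share was 4 of 37 (10.8%). When a site was counted for any list gene within 50 kb in place of the nearest gene, the share was 9.77% for B cell, 8.77% for T cell, 8.05% for macrophage, 15.1% for dendritic and 2.76% for erythroid genes.

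**Figure D2:**
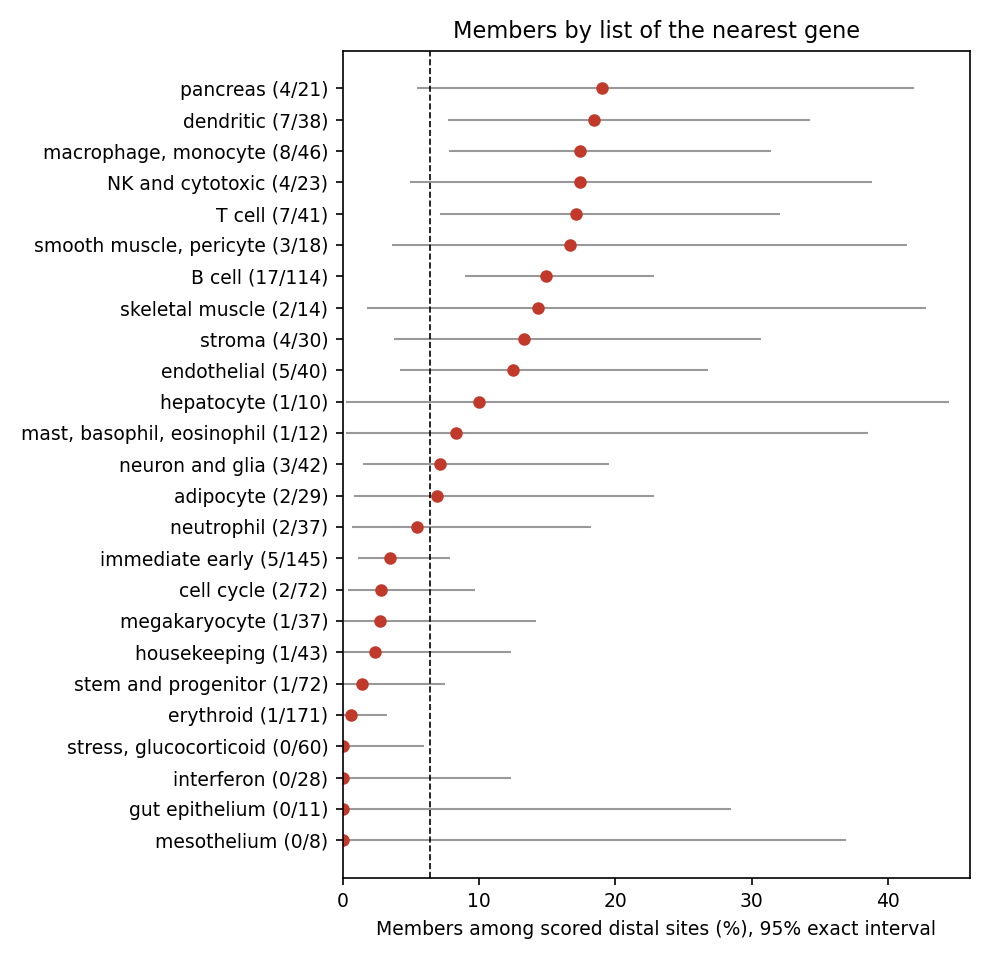
Percent of scored distal sites that are members (points, with exact binomial 95% intervals) for 25 lists of nearest genes, with members and scored sites in brackets. The dashed line is the 6.41% of all scored sites. The erythroid point lies at 0.585% and the B, T, macrophage and dendritic points between 14.9% and 18.4%. The pancreas point is the highest, at 19%.

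The following medians cover all scored sites of a list and include the members, which were selected on the same ratio. The median centred ratio was 0.25 at the sites of B cell genes, 0.25 for T cell genes, 0.28 for natural killer genes, 0.32 for dendritic genes and 0.21 for macrophage genes, against 0.06 over all scored sites. It was -0.08 for erythroid genes, of whose sites 30.4% lay above 0, against 75.4% for B cell genes. Of all scored sites 57.5% lay above 0, which is the share to set beside the counts above 0 given below. Neutrophil genes were at -0.04 with 2 members of 37 sites, and stem and progenitor genes at 0.04 with 1 of 72. Stroma genes had 4 members of 30 (13.3%, 3.76 to 30.7) and the highest median of the 25 lists, 0.35. Smooth muscle and pericyte genes had 3 of 18 (16.7%, 3.58 to 41.4), beside 4 of 19 that were stronger in replicate 1. Endothelial genes had 5 of 40 (12.5%, 4.19 to 26.8), but 2 of 40 (5%) with the ratio centred on the median of distal regions, where 4.83% of all scored sites passed. Lists of tissues that a spleen should lack were not uniformly low. Pancreas genes had 4 of 21 (19%, 5.45 to 41.9), the highest share of the 25 lists, with a median of 0.32. Skeletal muscle genes had 2 of 14 and gut epithelium genes 0 of 11. Stress and glucocorticoid genes had 0 of 60 and interferon genes 0 of 28. The list genes account for 76 members, and the other 911 have a nearest gene in no list.

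**Figure D3:**
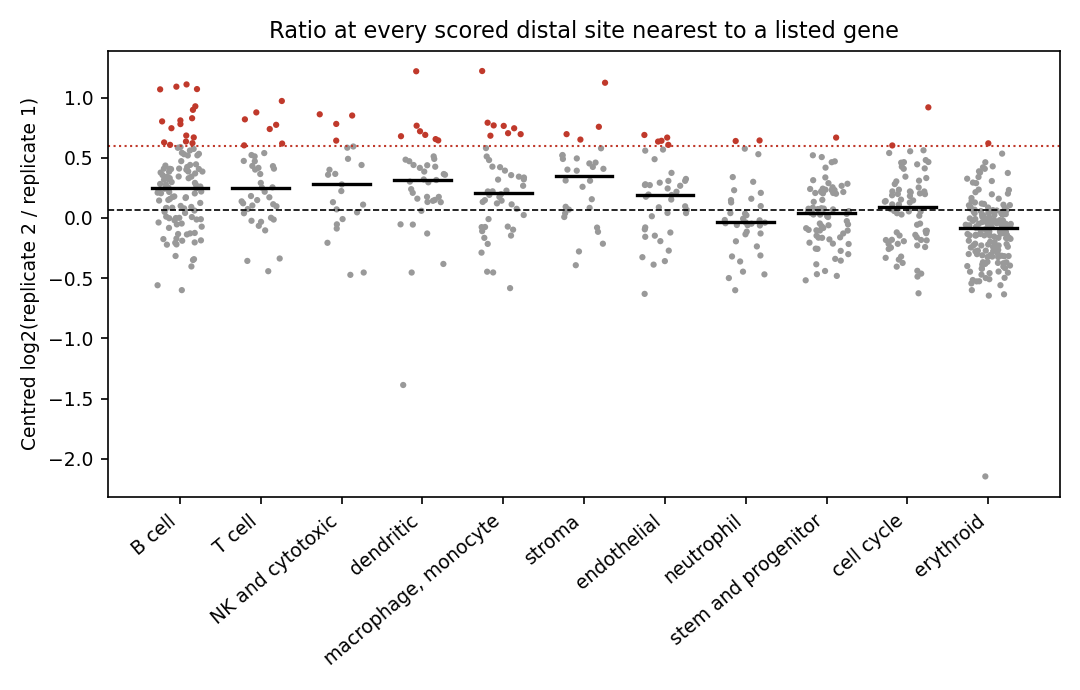
Centred log2 ratio (replicate 2 over replicate 1) at every scored distal site nearest to a gene of 11 lists. Red points are members, short black lines are list medians, the dotted line is the threshold of 0.6 and the dashed line is the median of all scored sites (0.06). The B cell median is 0.25 and the erythroid median -0.08, and the points of all lists overlap.

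Among transcription factors of B cells, Spib, an ETS factor of B and plasmacytoid dendritic cells, had members at 1.03 kb (2.15 in replicate 2, 1.38 in replicate 1, centred log2 0.80) and 2.33 kb (2.40 in replicate 2, 1.73 in replicate 1, 0.64). Foxo1, a factor required for B cell development, had 3 members among 7 scored sites, and all 7 had centred ratios above 0, between 0.21 and 1.11. Its strongest ratio was at chr3:52242561-52242760, 25.7 kb from the start, with 1.28 in replicate 2 and 0.667 in replicate 1. Its other members lay 128 and 366 kb from the start. The Foxo1 members were weaker than those of Spib in both libraries. Syk, a kinase of the B cell receptor pathway, had members with 1.44 and 1.08 in replicate 2, against 0.919 and 0.704 in replicate 1. S1pr1, a receptor that guides the exit of lymphocytes from tissue, had members with 2.91 and 2.22 in replicate 2, against 2.05 and 1.61 in replicate 1. They lay 118 and 53.8 kb from its start. The other scored sites were between 0.06 and 0.34 at Syk, and at 0.41 and -0.19 at S1pr1. The remaining members of the B cell list, named after their values were seen, were nearest to Bcl6, Blk, Cd22, Cd79b, Ebf1, Fcrla, Pax5 and Tnfrsf13b, with centred ratios between 0.62 (Ebf1) and 1.09 (Cd22). The Ebf1 member lay 391 kb and the Bcl6 member 177 kb from the nearest start site.

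Some members in or within 50 kb of immunoglobulin loci carried the names of other genes. Tmem121, the protein-coding gene nearest to most members (4 of 13 scored sites), adjoins the 3′ end of the heavy chain locus, and its members lie at Igha, which encodes the constant region of IgA, or between Igha and Tmem121. The member inside Igha had a signal of 1.5 in replicate 2 and 0.796 in replicate 1 (centred log2 1.08). The other 3 had 2.63, 2.29 and 1.66 in replicate 2, against 1.70, 1.49 and 1.08 in replicate 1. All 13 sites had ratios above 0, between 0.11 and 1.08. Within 50 kb of immunoglobulin genes, a window chosen after the values were seen, 8 of 22 scored sites were members (36.4%, 17.2 to 59.3), against 6.41% of all. The heavy chain locus gave 4 of 16, kappa 3 of 5 and lambda 1 of 1. Of these members, only those at Igha and Igkv2-137 overlap an immunoglobulin gene. The lambda member lies 48199 bp from Iglc4, and 1 kappa member lies 41994 bp from Igkc, within Rpia. Most heavy chain sites are the neighbouring sites nearest to Tmem121, and the interval treats them as independent. Ratios above 0 were found at 21 of the 22, against 57.5% of all scored sites. Around T cell receptor genes 2 of 16 were members (12.5%, 1.55 to 38.3).

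The MHC class II genes, which encode the molecules that present antigen to T helper cells, had members at each of H2-Ab1, H2-Aa and H2-Eb1. The H2-Ab1 member had a signal of 4.00 in replicate 2 and 1.92 in replicate 1 (centred log2 1.22). It lies 5.44 kb from the nearest protein-coding start site used here, but overlaps the annotated 5′ end of the gene (chr17:34257689). The H2-Aa member had 2.42 in replicate 2 and 1.69 in replicate 1 (0.68). H2-Eb1 had members with 2.40 and 1.43 in replicate 2, against 1.58 and 0.973 in replicate 1. Next to them Btnl2, a butyrophilin-like gene, had members with 2.66 and 3.37 in replicate 2, against 1.03 and 2.41 in replicate 1. Over 10 genes picked from this stretch, put together after their values were seen, 6 of 15 scored distal sites were members, against 6.41% of all. The 10 genes include Btnl2, which gave 2 of the 6 members. Ratios above 0 were found at 10 of the 15, near the 57.5% of all scored sites. The 5 distal sites of H2-Oa included 4 below 0, so the higher signal in replicate 2 did not run along the whole stretch. Promoters, which the rule left out, had centred ratios of 1.26 at H2-Aa, 1.13 at H2-Eb1 and 1.12 at H2-Ab1, against a median of -0.08 over 12331 promoter values. Other promoter regions of the stretch were lower. They had 0.85 at a further region of H2-Eb1, 0.76, 0.66 and 0.21 at H2-Ob, 0.54 at H2-Oa and 0.37 at H2-Eb2. Values were 0.14 and -0.33 at H2-DMb2, 0.06 at Btnl2, 0.04 at H2-DMa and -0.02 at a further region of H2-Ab1. Tcf4, a factor of plasmacytoid dendritic cells, had members with 2.84 and 1.10 in replicate 2, against 1.97 and 0.780 in replicate 1. They lay 191 and 15.7 kb from its nearest start site.

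Of the T cell genes, Ets1, an ETS factor of lymphocytes, had 3 members among 4 scored sites, with 1.40, 1.30 and 1.19 in replicate 2, against 0.801, 0.796 and 0.758 in replicate 1. These members lay 244, 399 and 51.5 kb from its start, in the same order, and its promoter ratio was 0.10. Tcf7, a factor of T cell development, had a member with 2.44 in replicate 2 and 1.6 in replicate 1. Runx3, a factor of cytotoxic T cells, had one with 3.93 in replicate 2 and 2.90 in replicate 1, and Cd2, an adhesion molecule of T cells, one with 4.57 in replicate 2 and 3.33 in replicate 1. These lay at or just past the threshold, with 0.60 for Runx3 and 0.62 for Cd2. The other scored sites had ratios between -0.03 and 0.37 at Runx3 (8 scored in all) and between 0.11 and 0.54 at Cd2 (4 in all). The other site of Tcf7 was at 0.22. Klrb1c, which encodes the receptor NK1.1 of natural killer cells, had 3 members among 7 sites, with 3.85, 2.10 and 1.52 in replicate 2, against 2.51, 1.51 and 0.935 in replicate 1. All 7 of its sites had ratios above 0. Fasl, the death ligand of cytotoxic cells, had a member with 2.66 in replicate 2 and 1.65 in replicate 1, while its other scored site was at -0.21.

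Of the myeloid genes, Tlr4, the receptor for bacterial lipopolysaccharide, had the highest ratio (2.54 in replicate 2, 1.22 in replicate 1, centred log2 1.22), at a site 381 kb from its start. Cx3cr1, the fractalkine receptor of monocytes, had one with 1.97 in replicate 2 and 1.37 in replicate 1. Klf4, a factor of monocytes that is also in the immediate early list, had members with 1.48 and 1.34 in replicate 2, against 0.989 and 0.919 in replicate 1. The other scored sites of Klf4 were at -0.07 and -0.58. The single member of the erythroid list, near Xpo7, a nuclear transport receptor used in red cell maturation, had 1.88 in replicate 2 and 1.37 in replicate 1 (0.62), just past the threshold. The other 3 scored sites of Xpo7 had ratios between -0.14 and 0.06. In the stroma list, Dcn, which encodes the matrix proteoglycan decorin, had a member with 2.19 in replicate 2 and 1.13 in replicate 1 (1.12), and a neighbouring site with 4.49 in replicate 2 and 4.72 in replicate 1 that was no member. These Dcn sites lay 166 kb from its start.

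GATA and KLF matches were less frequent in members than in the other sites, and EBF, E2A and TAL1 E-box matches more frequent. PU.1 and EICE matches were also more frequent, but with overlapping intervals. GATA matches were found in 8.51% of members (exact binomial 95% interval 6.85 to 10.4), in 18.5% of other scored sites and in 34.0% of the sites stronger in replicate 1. EBF matches were found in 2.23% of members, 0.979% of other sites and 0.694% of the sites stronger in replicate 1. PU.1 matches were found in 6.18% (4.76 to 7.87), 4.53% (4.19 to 4.88) and 3.65% of the same sets. EICE matches were found in 3.14% (2.14 to 4.43), 1.96% (1.74 to 2.2) and 1.04%, and E2A E-boxes in 24.3%, 20.8% and 14.4%. The TAL1 E-box (CAGATG on either strand), named for a factor of erythroid cells, was found in 20.9% (18.4 to 23.5), 16.7% and 15.1%. KLF matches (CCCACCC and its variant CCACACCC) were less frequent in members, at 12.5%, 15.9% and 21.9%, as were AP-1 matches (TGAGTCA and its variant TGACTCA), at 2.43%, 4.68% and 6.25%. RUNX matches were found in 21.3%, 20.8% and 21.2%, with overlapping intervals. CTCF matches were found in 21.2% of members and 20.6% of other sites, but in 8.85% of the sites stronger in replicate 1.

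**Figure D4:**
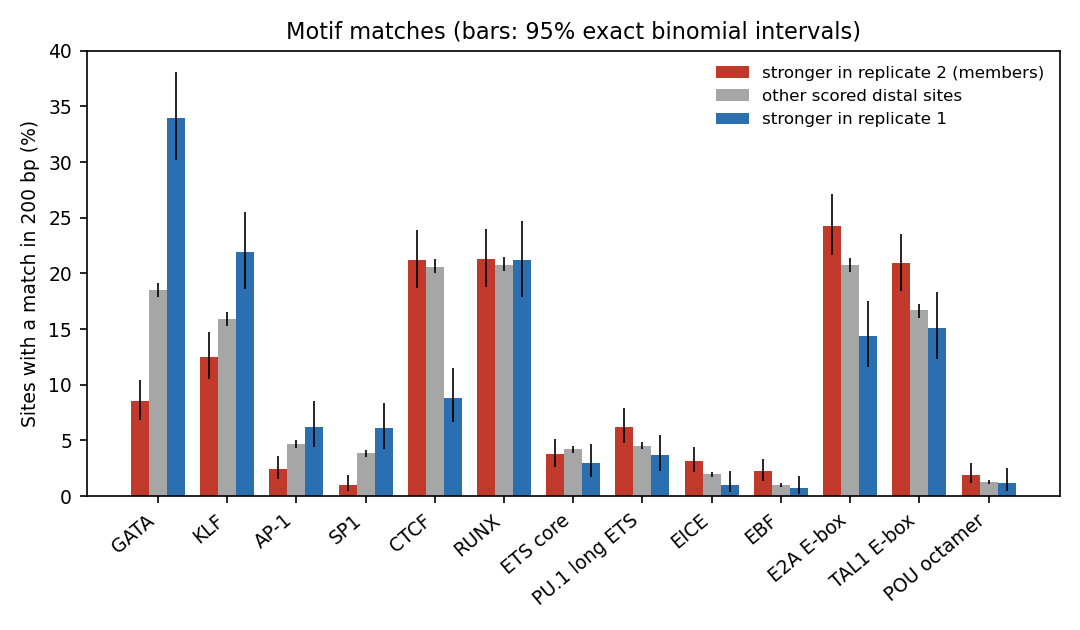
Percent of sites with a motif match in the central 200 bp, for members (red), other scored distal sites (grey) and sites stronger in replicate 1 (blue). Black lines are exact binomial 95% intervals, for counting error only. GATA matches are in 8.51% of members and 34.0% of the sites stronger in replicate 1.

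Members were poorer in G and C than the other scored sites, with a median GC content of 51% against 54%. The share of members among scored sites was 10.7%, 8.48%, 5.85%, 4.71% and 2.37% in 5 groups of near equal size, from the lowest to the highest GC content. The lower share of GATA matches was present at each level of GC content. It was 13.4% of members and 23.4% of other sites in the group of lowest GC content, 6.51% and 24.0% in the next, and 2.74% and 7.15% in the highest. EBF matches were more frequent in members in all 5 groups. The excesses of PU.1, EICE and E2A matches were not present in each group. PU.1 matches were found in 2.74% of members and 3.73% of other sites of the highest GC content, and EICE matches in 0% and 1.13% there. E2A E-boxes were found in 17.1% and 17.6% of the lowest GC content. TAL1, KLF and AP-1 matches were not split by GC content. B cell list sites at or under the median GC content were members in 26.7% of cases, against 8.75% of all scored sites in that range, and those above it in 7.25%, against 3.79% of all. The macrophage share depended on weak sites: among sites with a replicate 2 signal of 2 or more it was 5.26%, against 5.07% of all such sites. The part of GC content in the ratio was not tested.

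**Figure D5:**
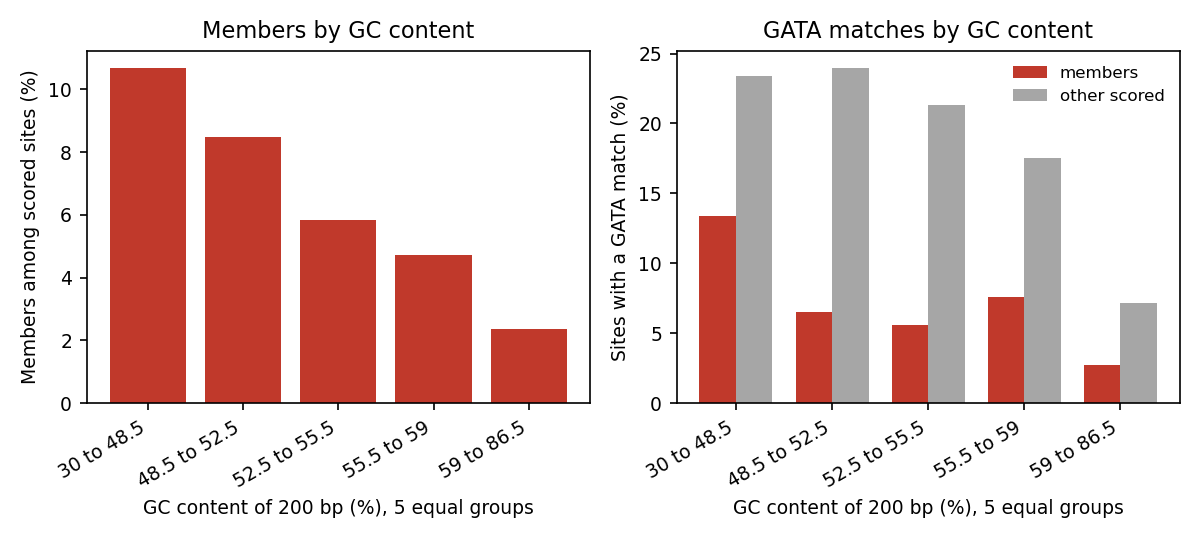
Left, percent of scored distal sites that are members in 5 groups by GC content of the central 200 bp. Right, percent of sites with a GATA match in the same groups, for members (red) and other scored sites (grey). The members' share is 10.7% in the lowest group and 2.37% in the highest, and members have fewer GATA matches in each group.

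The most extreme members differed from the rest in sequence. The highest ratio was at a site 285 kb from Kcnn2, with a signal of 2.76 in replicate 2 and 0.333 in replicate 1 (centred log2 3.21). It was followed by sites nearest to Pdia4 (2.5 in replicate 2, 0.796 in replicate 1) and Gm2310 (1.19 in replicate 2, 0.392 in replicate 1). In 6 of the 12 members with the highest ratios, over 50% of the 31-base words of the site occur more than once in the reference genome, so a short read from such a word has more than 1 possible origin. That held for 15 of the 80 members with a ratio of 1 or higher (18.8%), 30 of the 907 others (3.31%) and 1.11% of the scored sites that were no member. The strongest member, near Igf2bp3, had 34.7 in replicate 2 and 24.6 in replicate 1 and consists of repeated words for 88.7%. The one near Il31ra, with 26.3 in replicate 2 and 15.3 in replicate 1, does so for 75.4%. The 8 next strongest, near Gm8797, Prr3, Pllp, Gphn, Cdh15, Cdh20, Msl1 and Stx11, had between 7.69 and 18.5 in replicate 2 and between 5.23 and 13.3 in replicate 1. Of the 3 members of Sfi1, a centrosomal protein gene with 25 scored sites, 2 were mostly repeated words. By contrast the Btnl2 member, among the 12 highest ratios, held no repeated word.

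The 987 members were spread over 897 nearest genes, and 8 of these genes had 3 or more. Beside those described, they were Uaca, Tns1 and Cacna1e, with ratios at their members between 0.61 and 0.86. Of the genes with 2 members, Gm15319, Hist1h4h, Sept9 and Zfp36l1 had the highest replicate 2 signals summed over all their scored sites, and their members had ratios between 0.61 and 1.16. Promoters of genes nearest to a member had a median centred ratio of -0.05 (677 promoters, 3.25% past 0.6), against -0.09 for other genes with a scored distal site (4895 promoters, 0.981% past 0.6). The sites of the same genes that were no member had a median of 0.10 (1530 sites), against 0.03 at other genes (12877 sites).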

How the data were processed

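The authors deposited, per library, 2 peak lists with a signal per peak, called on that library alone, and footprints with an FDR (q-value, here a p-value type column) that is 0.01 in every line, on mm10 per the labels. The aligner, the caller and the scale of the signal remain not given in the sources used here. The values under 1 fall on a grid with a step of 0.00409 in replicate 2, against 0.00538 in replicate 1, to within 0.02 of the step. Depth is unknown.

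Peaks of the longer lists were merged at 1 bp overlap, with the highest signal per library. The highest peaks of the libraries overlapped in all 987 members. Start sites (41451 of 21864 protein-coding genes) came from the basic set of GENCODE vM21. Motifs (36), GC content, soft-masking and repeated 31-base words were taken from the GRCm38 reference in the central 200 bp or the region. Scoring was run on simulated peak lists with added ratios well above the threshold and little scatter. That run checks the code only, and tells nothing about real sites near the threshold. The members and the gene and motif lists were chosen with earlier results of these data known. Named are the 12 highest ratios, the 10 highest signals, the 12 genes with most members, up to 4 genes per list and the sites at the threshold, of which the text gives a part in full and others as ranges or counts, and 1 is not reported here. Python 3.11.15, pandas 2.3.3, scipy 1.17.1 and samtools 1.23.1 were used.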

Additional observations from a re-analysis of the deposited data

How the results depend on the processing

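The number of members was between 690 and 1023 with other centring, a signal minimum on the geometric mean of both libraries, other peak overlap, the stricter lists, a 2.5 kb distance, the full annotation, autosomes and without repeated or masked sites. It was 310 with a signal minimum of 2, 80 with a ratio threshold of 1, 712 at or under the median GC content and 275 above it. The erythroid share of 0.585% became 0% with centring on the distal or scored median, a signal minimum of 2, a threshold of 1, without Xpo7 or above the median GC content. With a threshold of 1 the shares were 3.51% for B cell, 0% for T cell, 2.17% for macrophage and 2.63% for dendritic genes, against 0.52% of all scored sites, and with a signal minimum of 2 the macrophage share was 5.26%, against 5.07% of all. The B cell share was 26.7% at or under and 7.25% above the median GC content, where the dendritic share was 6.67%, against 8.75% of all scored sites at or under that median and 3.79% above it. The endothelial share was 2.7% with the minimum on the geometric mean. The causes were not tested. The GC split, the repeated words and the full annotation were chosen after seeing the data. For the number of members and the erythroid, B cell, T cell, macrophage and dendritic shares, 85 alternative values were labelled unchanged and 17 moved. A share was labelled unchanged when it lay within the exact binomial interval of the main share. Such values need not be close: the T cell share was 12.2% with centring on the distal median, against 17.1% in the main setting. A count of 690 members was also labelled unchanged. Over the remaining results 366 values were labelled unchanged and 57 moved, the latter including the endothelial share of 2.7%.

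Leaving out a replicate leaves no ratio, so no such value exists. No paired analysis was possible because the 2 libraries are 1 group and no test was run. Depth is unknown, so no counting error of a single signal can be given.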
